A study of Mus musculus with 9 samples.

Results

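The conditional Dnmt3a allele was present in 6 of the 9 LSK libraries of the study, and these 6 carriers, pooled whether or not they also held Mx1-Cre, were compared with the 3 wild-type libraries. Membership was read from the sample titles, where every carrier begins with cKI_ and every wild type with wt_Mx_pos_. LSK cells are the lineage-negative, Sca1-positive, cKit-positive fraction of mouse bone marrow, which holds the blood stem cells and the earliest progenitors. All animals were C57BL/6 and 6 months old, and poly(I:C) had been injected 5 times; as a mimic of viral RNA it induces interferon and so switches on the Cre recombinase placed under the Mx1 promoter. The wild-type group (wt_Mx+, given as Dnmt3a+/+) held Mx1-Cre, which drives recombination in any interferon-responsive cell and not only in blood. Of the carriers, 4 (cKI_Mx+, given as Dnmt3a+/m and called mutant below) held both Mx1-Cre and the conditional mutant allele at the endogenous locus. The other 2 (cKI_Cre-, given as Dnmt3a+/- and called Cre-negative below) held the allele and no Cre; the labels do not say how much Dnmt3a product the unrecombined allele gives. Absence of Cre thus occurred only among carriers, and what the pooled group shares is the conditional allele. Each library carries its group and its title number as a name, such as cre_negative_819. Nothing in the labels says how many animals gave each library, so p-values measure the spread between these libraries.

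Dnmt3a is a de novo DNA methyltransferase, which places methyl groups on cytosines of CG dinucleotides that were unmethylated before. In blood stem cells it is known for restraining self-renewal and allowing differentiation, and its mutation is frequent in acute myeloid leukaemia and in clonal haematopoiesis. DNA methylation near a start site is known to keep some genes silent, germline genes among them.

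Gene totals ranged from 47792306 to 58405879 counts per library, and the mean did not separate the groups (exact two-sided permutation test over the 84 ways of choosing 6 of 9 libraries, p = 1, with 0.0119 the smallest p that design can give). Kit stood between 365 and 545 CPM (the count scaled to the TMM-adjusted size of its library) and Ly6a, which encodes Sca1, between 26.96 and 43.7, so both genes of the sort were present in every library. The carriers were less alike than the mutant libraries alone: the median gene had a standard deviation of 0.26 on the log2 scale over the 6 carriers and 0.16 over the 4 mutant libraries. Over the 3 wild-type libraries it was 0.23. Standard deviations of fewer values tend to come out lower, so carriers and wild type cannot be ranked by these values. cre_negative_819 and cre_negative_780 stood farthest from the rest, with mean Spearman correlations to the other 8 libraries of 0.978 and 0.981 across genes, against 0.985 to 0.988 for the remainder. Values are therefore given with and without these libraries where they alter a result.

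Dnmt3a itself (ENSMUSG00000020661, chromosome 12, 3806007 to 3914443 of GRCm38, protein-coding) checks the labels first. It stood at 175, 147 and 156 CPM in the 3 wild-type libraries. In mutant_824, mutant_827, mutant_829 and mutant_830 the level was 159, 159, 173 and 156 CPM, and in cre_negative_780 and cre_negative_819 it was 117 and 91.5 CPM. The mutant libraries lay within the wild-type range and both Cre-negative libraries lay below every other library, so the carriers did not form 1 group for this gene. Pooled, they differed from wild type by a log2 fold change of -0.16 (95% interval -0.55 to 0.23) in edgeR's quasi-likelihood test, with an adjusted p of 0.9998 over all genes. Within the carriers the mutant-minus-Cre-negative difference was 0.64 (95% interval 0.36 to 0.91), with an edgeR adjusted p of 0.872 over all genes. Counts per gene do not tell the mutant from the wild-type transcript.

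Sequences upstream of 4 of the leading genes are shown because methylation of CG dinucleotides is what the targeted enzyme places; methylation itself was not measured here. Each is the 250 bases before the RefSeq start (GRCm38.p6), 5′ to 3′ on the gene's strand, with every CG in capitals, and none overlaps an annotated exon. The Tjp1 window lies in an intron of longer annotated transcripts of the gene, and the other 3 lie just before the annotated gene. Rapgefl1 (chr11:98836535-98836784, plus strand) and Pyroxd2 (chr19:42752776-42753025, minus strand) had higher values in carriers. Tjp1 (chr7:65371245-65371494, minus strand) and Cd244a (chr1:171558943-171559192, plus strand) had lower values.
Rapgefl1: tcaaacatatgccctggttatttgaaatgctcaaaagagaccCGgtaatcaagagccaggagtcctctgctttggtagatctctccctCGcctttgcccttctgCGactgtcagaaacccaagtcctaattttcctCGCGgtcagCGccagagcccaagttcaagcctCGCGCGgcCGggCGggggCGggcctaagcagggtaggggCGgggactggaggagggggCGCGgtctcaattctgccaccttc
Pyroxd2: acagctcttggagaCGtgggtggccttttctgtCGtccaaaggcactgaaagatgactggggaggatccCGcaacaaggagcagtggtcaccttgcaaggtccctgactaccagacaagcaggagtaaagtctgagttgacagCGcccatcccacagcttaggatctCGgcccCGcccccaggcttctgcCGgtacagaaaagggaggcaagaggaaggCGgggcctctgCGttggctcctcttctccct
Tjp1: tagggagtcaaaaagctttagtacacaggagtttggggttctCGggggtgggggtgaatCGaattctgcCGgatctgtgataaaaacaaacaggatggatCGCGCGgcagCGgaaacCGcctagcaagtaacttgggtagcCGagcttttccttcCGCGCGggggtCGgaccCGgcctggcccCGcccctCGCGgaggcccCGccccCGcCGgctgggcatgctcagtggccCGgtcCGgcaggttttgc
Cd244a: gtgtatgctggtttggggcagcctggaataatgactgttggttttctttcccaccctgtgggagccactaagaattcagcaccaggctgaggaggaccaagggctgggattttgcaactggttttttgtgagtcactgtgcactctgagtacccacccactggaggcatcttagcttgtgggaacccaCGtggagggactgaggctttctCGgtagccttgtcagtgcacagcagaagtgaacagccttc

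These windows held 15 (Rapgefl1), 9 (Pyroxd2), 22 (Tjp1) and 2 (Cd244a) CG dinucleotides, so genes with lower values in carriers included both the richest and the poorest of the 4. Of the 24 genes described below, 15 matched a window in the RefSeq table. The 6 with higher values held 3 to 17 CG (median 9.5) and the 9 with lower values held 2 to 23 (median 8). Over all 32851 windows the median was 6, with quartiles of 2 and 16, and 92.1% held at least 1. The letters GGCGGGA, an E2F-type motif, searched on both strands, stood in the windows of Tex14 and Hmga2 and in 9.75% of all windows. The E-box CACGTG, searched the same way, stood in those of Cd244a and Cers6 and in 6.02% of all. No window of the 24 genes held both motifs.

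Set against wild type across 18012 genes, the pooled carriers gave no gene past an adjusted p of 0.05 in edgeR (0%), with 596 genes (3.31%) at an unadjusted p under 0.05. Of the latter, 386 (2.14%) had higher and 210 (1.17%) lower fitted levels in carriers, while 49.8% of all genes had a log2 fold change above 0. DESeq2 on the same counts called 35 genes (0.195%), 33 higher (0.184%) and 2 lower (0.0111%), and limma-voom with sample quality weights called 15 (0.0833%). Without cre_negative_819, edgeR called 9 genes, all higher in carriers and among them Rapgefl1, Psma8, Mmp14, Skida1, Rps4l and Serpinh1. All 6 carriers lay above all 3 wild-type libraries for 207 genes (1.15% of those tested) and below them for 132 (0.733%), 1.88% together. The median log2 fold change of these non-overlapping genes was 0.72 for the higher and -0.34 for the lower ones. Of the 339, 273 were protein-coding, as were 13895 of the 18012 genes tested, so the share was near the background. In 210 of the 339 the Cre-negative mean lay farther from wild type than the mutant mean. That share was not computed over all genes, and the Cre-negative mean rests on the least alike pair of libraries within a group. Between the carrier genotypes 26 of the 339 had an unadjusted edgeR p under 0.05, against 4.94% of all genes. The share without overlap was 2.49% among genes under 1 CPM and 1.15% among those over 100 CPM. The 24 genes described next are the 12 of lowest p in each direction with a mean of at least 1 CPM; none of them passed in the edgeR fit, so their values are a description.

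**Figure D1:**
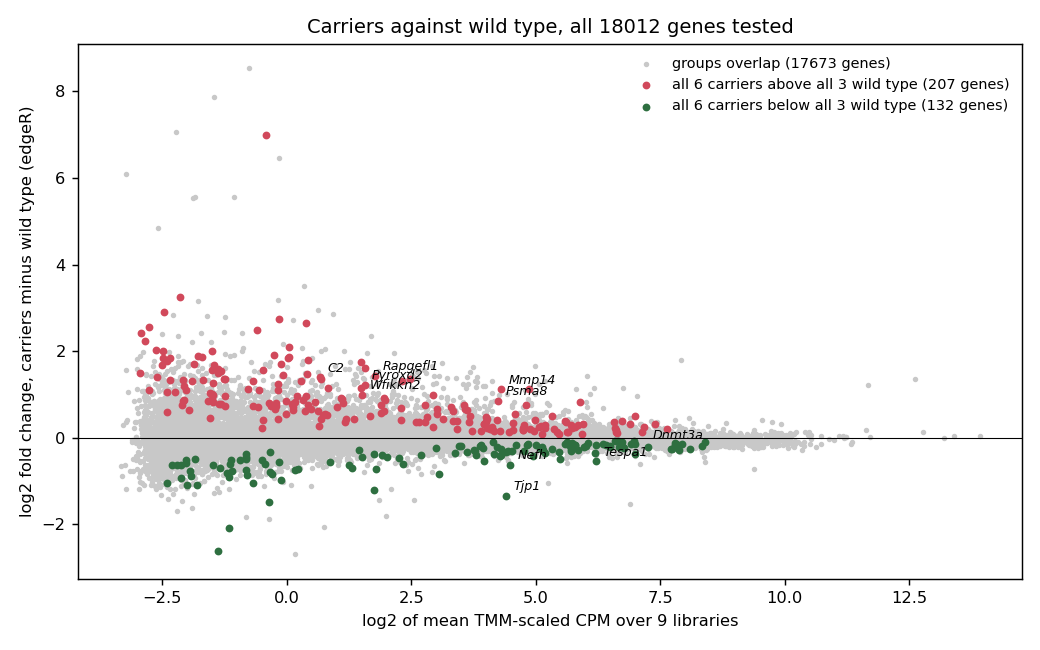
Log2 fold change of carriers against wild type (vertical axis) by the log2 of the mean CPM over 9 libraries (horizontal axis), 1 point per gene. The 207 red genes had all 6 carriers above all 3 wild-type libraries, the 132 green genes had all 6 below, and Dnmt3a lies near 0.

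Psma8 had the lowest p of all genes. It encodes a proteasome subunit used in the testis (ENSMUSG00000036743, chromosome 18, 14706151 to 14762301) and stood at 11.6, 12.9 and 12.8 CPM in the 3 wild-type libraries. The libraries mutant_824, mutant_827, mutant_829 and mutant_830 held 21.4, 23.7, 25.1 and 19.3 CPM and cre_negative_780 and cre_negative_819 held 21.9 and 22.7 CPM. Every carrier was above every wild type, and the Cre-negative values lay inside the mutant range. The log2 fold change was 0.85 (SE 0.11, edgeR adjusted p = 0.179), and mutant and Cre-negative differed by 0.0088 (95% interval -0.29 to 0.31).

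Another germ cell gene, Tex14, which encodes a protein of the bridges between dividing germ cells (ENSMUSG00000010342, chromosome 11, 87405065 to 87555823), stood at 1.54, 0.774 and 0.999 CPM in wild type in the same order. Mutant levels were 3.95, 3.69, 6.28 and 2.43 CPM and Cre-negative levels 2.23 and 3.56 CPM, which again left no overlap with wild type but a wide spread among carriers. Its log2 fold change was 1.74 (SE 0.37, edgeR adjusted p = 0.696). Hormad2, a gene of the meiotic chromosome axis, stood at 1.69, 3.02 and 2.79 CPM in wild type, 5.57, 6.703, 7.58 and 9.55 in mutant and 3.2999 and 4.32 in Cre-negative libraries. For Hormad2 the Cre-negative libraries lay between wild type and the mutant libraries, and mutant minus Cre-negative was 0.95 (95% interval 0.28 to 1.62, edgeR adjusted p = 0.872). The list of germline genes known to be silenced by DNA methylation, to which these 3 belong, had 12 of 14 measured members with positive log2 fold changes, a median of 0.35 and 3 members without overlap (1.88% of all genes had none); no member passed the edgeR test. The median was 0.34 in the 4 mutant libraries and 0.35 in the 2 Cre-negative libraries, each set against the same wild type. With each library left out in turn it ranged from 0.24 to 0.50. Psma8, Tex14 and Hormad2 were put on this list with earlier results of these libraries known, so their values lend the list no support. Without these 3, 9 of 11 members were positive and the median was 0.24. Of the 32 list members, only 14 passed the count filter, and Sycp1 and Zfp42 had no counts in any library.

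Rapgefl1, Wfikkn2, C2 and Unc5cl were also among the 12 higher genes. Rapgefl1, related to the exchange factors of Rap GTPases (ENSMUSG00000038020, chromosome 11, 98836785 to 98853697), stood at 1.52, 1.63 and 1.66 CPM in wild type. The carriers held 5.37, 4.88, 3.85 and 4.67 CPM with Mx1-Cre and 4.302 and 2.97 CPM without it. All 6 were above wild type, and cre_negative_819 was the lowest of them. Its log2 fold change was 1.44 (SE 0.22, edgeR adjusted p = 0.303). Wfikkn2, which encodes a secreted antagonist of myostatin-type ligands (chromosome 11, 94235956 to 94246005), stood at 1.71, 1.63 and 1.83 CPM in wild type, 4.27, 3.32, 3.54 and 3.55 in mutant and 3.01 and 2.88 in Cre-negative libraries, a log2 fold change of 0.99 (SE 0.19, edgeR adjusted p = 0.581). The 2 Cre-negative libraries were the lowest carriers for this gene, and both exceeded all wild types. C2, a component of the classical complement pathway (chromosome 17, 34862604 to 34898265), stood at 0.621, 0.774 and 0.886 CPM in wild type, 2.04, 1.39, 1.97 and 2.82 in mutant and 2.15 and 1.67 in Cre-negative libraries. Unc5cl, a death domain protein gene (chromosome 17, 48454901 to 48539714), had its highest carrier values without Cre, at 5.35 and 5.52 CPM, against 4.35, 4.13, 4.704 and 3.65 in mutant and 2.37, 2.34 and 2.81 in wild-type libraries.

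Mmp14, a membrane-bound metalloproteinase that cuts matrix and cell surface proteins (ENSMUSG00000000957, chromosome 14, 54431612 to 54445364), stood at 11.3, 9.304 and 12.8 CPM in wild type. Mutant libraries held 20.7, 20.6, 21.5 and 24.3 CPM, close together, and Cre-negative libraries 19.99 and 38.2 CPM. cre_negative_819 stood far above the other carriers, which all still exceeded wild type. The log2 fold change of 1.12 (SE 0.22, edgeR adjusted p = 0.581) became 0.94 without that library, where edgeR called the gene. Vcam1, an adhesion molecule of stroma and macrophages that is also made by some progenitors, stood at 15.1, 9.304 and 10.3 CPM in wild type, 18.2, 22.6, 26.3 and 27.7 in mutant and 29.5 and 13.7 in Cre-negative libraries, so that only cre_negative_819 overlapped wild type. The collagen gene Col1a2 stood at 5.72, 1.23 and 2.34 CPM in wild type, 9.45, 5.37, 8.05 and 11.02 in mutant and 17.6 and 7.18 in Cre-negative libraries, and mutant_827 was the only carrier to overlap wild type. Col1a1, its partner chain, was under 0.3 CPM in 8 libraries and at 2.097 CPM in mutant_824. Summed over the list, stromal and endothelial cell markers lay at 501 to 609 CPM in wild type and 441 to 617 in carriers, and 10 of 17 measured members had positive log2 fold changes, with Pdgfrb, a receptor of stromal cells, at -0.25; their part in the collagen and Vcam1 values was not tested. In bulk RNA, fewer cells of a type and less RNA per cell cannot be told apart.

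Pyroxd2, Cryab, Skida1, Rps4l and Platr17 were the other higher genes. Pyroxd2, an oxidoreductase-type protein gene (chromosome 19, 42725858 to 42752775), stood at 1.81, 1.51 and 1.395 CPM in wild type, 3.27, 2.901, 4.97 and 4.398 in mutant and 3.45 and 2.97 in Cre-negative libraries. Cryab, a small heat shock chaperone (chromosome 9, 50751325 to 50756636), stood at 0.226, 0.476 and 0.415 CPM in wild type, 1.997, 0.937, 1.11 and 0.907 in mutant and 1.73 and 1.34 in Cre-negative libraries, a log2 fold change of 1.84 with a wide 95% interval of 1.02 to 2.66. At these levels all wild-type values were below 1 CPM. Skida1, a gene with a SKI/DACH-type domain (chromosome 2, 18040676 to 18049051), had the largest log2 fold change of the 12, 2.65 (SE 0.58), from 0.301, 0.198 and 0.358 CPM in wild type to 1.36, 1.48, 2.16 and 2.22 in mutant libraries. The Cre-negative libraries split for Skida1, at 3.24 and 0.394 CPM, the first the highest of all 9 and the second next to wild type. Rps4l, annotated as a transcribed processed pseudogene of a ribosomal protein gene (chromosome 6, 148354656 to 148355598), stood at 2.88, 2.4997 and 2.85 CPM in wild type and 4.102 to 10.004 in carriers, and reads shared with near-identical copies make its level uncertain. Platr17 (chromosome 17, 33905135 to 33906675) stood at 0.771, 0.972 and 0.641 CPM in wild type, 2.02, 1.96, 2.397 and 1.25 in mutant and 2.36 and 2.203 in Cre-negative libraries.

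**Figure D2:**
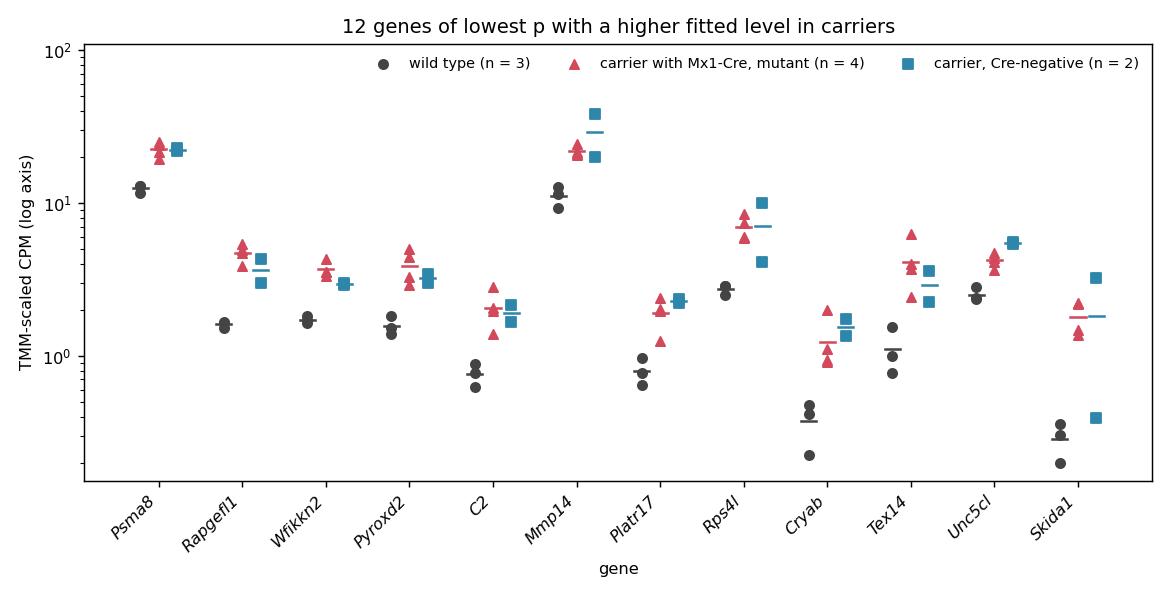
TMM-scaled CPM on a log axis for the 12 genes of lowest p with a higher fitted level in carriers, 1 point per library and a short line at each group mean (circles wild type, triangles mutant, squares Cre-negative). No carrier value overlaps wild type, as the choice of genes favours, and the Cre-negative pair is widest apart for Skida1 and Rps4l.

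Among the 12 lower genes Tjp1 had the largest log2 fold change in size. It encodes ZO-1, a scaffold of tight junctions (ENSMUSG00000030516, chromosome 7, 65296165 to 65527781), and stood at 32.5, 47.8 and 26.98 CPM in the 3 wild-type libraries. Mutant libraries held 14.3, 13.01, 12.2 and 21.1 CPM and Cre-negative libraries 9.09 and 14.8 CPM. All carriers were below all wild types, with mutant_830 the highest carrier. The log2 fold change was -1.34 (SE 0.23, edgeR adjusted p = 0.552), and mutant minus Cre-negative was 0.34 (95% interval -0.32 to 1.003). Of 41 measured adhesion and junction genes, 22 had positive and 19 negative log2 fold changes (median 0.022). Mmp14 was the only member wholly above and Tjp1 the only member wholly below wild type, against 1.15% and 0.733% of all genes. Both genes were already named by lowest p, and the lists were chosen with earlier results known, so they lend the list no support.

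Cd244a, Il18rap and Tespa1 had smaller differences than Tjp1. Cd244a, a receptor of the SLAM family whose members are used to mark stem and progenitor cells (ENSMUSG00000004709, chromosome 1, 171559193 to 171609746), stood at 53.3, 62.7 and 51.7 CPM in wild type, 38.9, 47.6, 39.3 and 44.6 in mutant and 33.2 and 34.7 in Cre-negative libraries. The groups did not overlap, and the Cre-negative libraries were the lowest of all. This was the only 1 of the 24 genes at an unadjusted p under 0.05 between the carrier genotypes in edgeR, with mutant minus Cre-negative at 0.33 (95% interval 0.040 to 0.61, edgeR adjusted p = 0.972). Il18rap, the accessory chain of the interleukin-18 receptor (chromosome 1, 40515362 to 40551705), stood at 154, 159 and 143 CPM in wild type, 108, 116, 111 and 126 in mutant and 139 and 99.4 in Cre-negative libraries. Tespa1, a signalling gene of thymocytes (chromosome 10, 130322870 to 130364111), stood at 78.8, 112 and 91.5 CPM in wild type, 69.3, 75.3, 55.2 and 69.6 in mutant and 58.1 and 60.4 in Cre-negative libraries. For Cd244a, Il18rap and Tespa1 the nearest carrier lay within 5 CPM of the nearest wild type, so the separation was narrow.

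The chromatin and transcription factor genes of this set were Hmga2 and Trps1. Hmga2, an architectural chromatin protein known from fetal stem cells (chromosome 10, 120361275 to 120476469), stood at 12.3, 8.63 and 6.56 CPM in wild type, 4.51, 5.099, 4.79 and 5.903 in mutant and 7.02 and 3.56 in Cre-negative libraries. It was the only 1 of the 24 whose groups overlapped, through cre_negative_780. Trps1, a GATA-type repressor (chromosome 15, 50654752 to 50890463), averaged 65.1 ± 3.57 CPM in wild type (SD, n = 3) and 53.6 ± 3.08 in carriers (SD, n = 6), the smallest log2 fold change of the set at -0.28. Nefh, a neurofilament chain (chromosome 11, 4938754 to 4948064), stood at 23.3, 33.9 and 30.7 CPM in wild type, 22.7, 19.3, 17.3 and 18.2 in mutant and 21.3 and 15.1 in Cre-negative libraries, and limma-voom with quality weights called it. The ceramide synthase gene Cers6 (chromosome 2, 68861441 to 69114282) averaged 59.7 ± 3.87 CPM (SD, n = 3) and 48.3 ± 1.85 (SD, n = 6), with all 6 carriers within 45.5 to 50.05 CPM. The navigator gene Nav1 averaged 37.2 CPM in wild type and 27.7 in carriers. In the same order Ipcef1, a partner of cytohesin exchange factors, averaged 42.6 and 33.4, the D-glutamate cyclase gene Dglucy 19.6 and 13.4, and the clathrin adaptor gene Ap1s3 16.6 and 12.5 CPM.

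**Figure D3:**
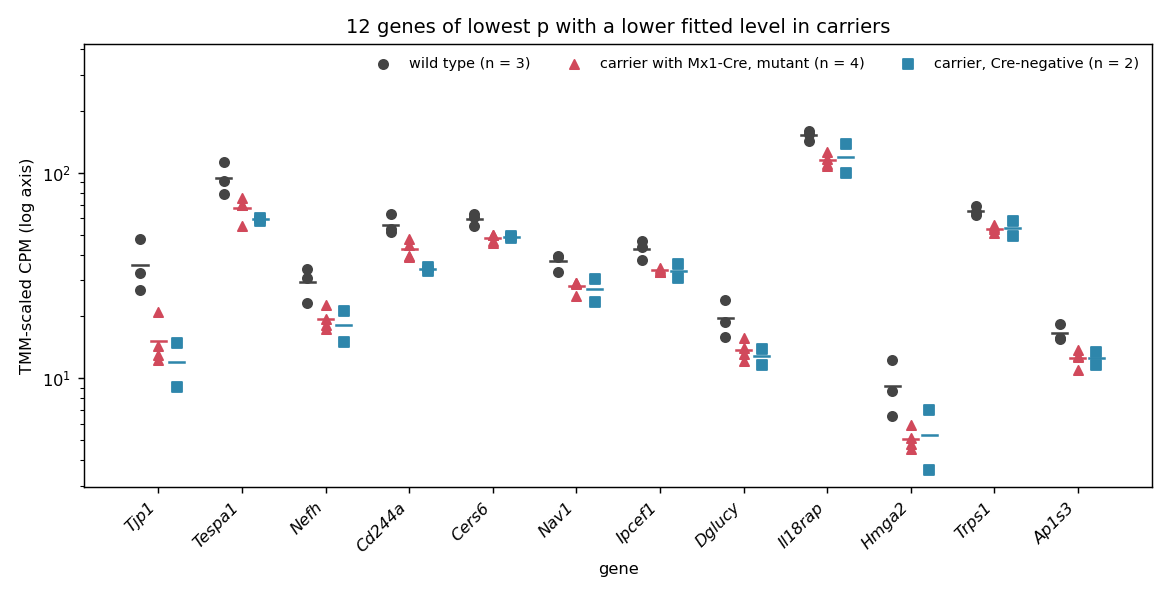
TMM-scaled CPM on a log axis for the 12 genes of lowest p with a lower fitted level in carriers, 1 point per library and a short line at each group mean (symbols by group as in the legend). Tjp1 shows the widest gap between wild type and carriers, and Hmga2 is the gene in which a Cre-negative library overlaps wild type.

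Over these 24 genes, log2 fold changes ran from 0.85 to 2.65 on the higher side and from -1.34 to -0.28 on the lower side, with edgeR adjusted p of 0.179 to 0.786 and 0.552 to 0.9998. DESeq2 called 13 of them, the 12 higher genes and Tjp1, and limma-voom called 6, namely Psma8, Rapgefl1, Wfikkn2, Pyroxd2, Mmp14 and Nefh. Over all genes these methods called 0.195% and 0.0833%. The 24 were chosen by lowest edgeR p on the same counts, which favours such calls, so they are no independent support. The test between the genotypes called 0 of 18012 genes in edgeR (0%; 890 or 4.94% at an unadjusted p under 0.05, and 21 called by DESeq2). Without cre_negative_780 the edgeR count was 1874 and without cre_negative_819 it was 4; each leaves 1 Cre-negative library, which is then assumed to vary like the other groups. Chi-square per degree of freedom over genes was 309.9 between cre_negative_780 and cre_negative_819, and 14.6 to 115 for the other pairs within a group.

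The allele sits at the Dnmt3a locus, so genes beside it were read separately. Within 2 Mb of the start of Dnmt3a, 28 other genes were tested, with a median log2 fold change of 0.020 and none whose carriers lay wholly above or below wild type, against 1.88% of all genes. Asxl2, a chromatin regulator upstream of Dnmt3a, had -0.12 (SE 0.13), Dtnb 0.024 (SE 0.13) and Dnajc27, on the far side, 0.053 (SE 0.087). Fkbp1b, at 0.60, was the only neighbour at an unadjusted edgeR p under 0.05 (0.0239), against 3.31% of all genes, so both counts are near the background. Over chromosome 12 as a whole 1.07% of 656 genes did not overlap, near the low end of a range from 1.05% on chromosome 19 to 2.604% on chromosome 14.

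The chosen gene lists were then counted for the pooled carriers; no member of any list passed the edgeR test, and the median over all genes was -0.00081. The DNA methylation machinery had 15 of 24 members with negative log2 fold changes (median -0.10, -0.10 to -0.0030 over single libraries left out). None of them was without overlap, against 1.88% of all genes. Tet1, which oxidises methylcytosine, stood at 145, 94.3 and 102 CPM in wild type, 81.5, 90.7, 89.8 and 86.4 in mutant and 102 and 88.6 in Cre-negative libraries, and the groups overlapped. Dnmt3b, the other de novo methyltransferase, averaged 125 ± 14.5 CPM in wild type (SD, n = 3) and 108 ± 11.7 in carriers (SD, n = 6). Tdg, a glycosylase of demethylation, was lowest in the 2 Cre-negative libraries, at 21.6 and 21.9 CPM, against 28.1, 32.1 and 29.996 in wild type and 28.9, 26.3, 26.5 and 28.3 in mutant libraries.

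Among DNA damage sensing and checkpoint genes 33 of 38 were below 0 on the log2 scale (median -0.12). Prkdc, the catalytic subunit of DNA-dependent protein kinase, stood at 183, 206 and 181 CPM in wild type, 153, 153, 162 and 147 in mutant and 141 and 203 in Cre-negative libraries, and only cre_negative_819 reached the wild-type range. The checkpoint kinase gene Atm followed the same pattern, at 280.2, 282 and 250.1 CPM in wild type, 236, 236, 243 and 235 in mutant and 213 and 282 in Cre-negative libraries. In both genes cre_negative_819 was the highest carrier and cre_negative_780 the lowest. Histone chaperone and remodelling genes had 26 of 30 negative members and a median of -0.071; Smarcc1, a subunit of SWI/SNF remodellers, averaged 270.4 CPM in wild type and 231 in carriers, and the nucleosome assembly gene Nap1l1 371 and 316. S phase genes had 36 of 38 negative members (median -0.14) and G2 and M phase genes 34 of 39 (median -0.071). These medians rested on single libraries: with each left out in turn, S phase ranged from -0.31 to 0.041, G2 and M phase from -0.17 to 0.10 and DNA damage genes from -0.16 to 0.0031. Top2a, the topoisomerase of dividing cells, stood at 1132 to 1901 CPM in wild type and 920.3 to 1704 in carriers. Cell cycle levels thus moved with the DNA damage list, and their part in it was not tested. The p53 targets had a median of 0.033 with 18 of 30 positive; Dram1, a p53-induced autophagy gene, stood at 7.601, 5.87 and 9.2005 CPM in wild type and 9.83 to 13.8 in carriers, without overlap.

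Interferon-stimulated genes had medians of opposite sign in the 2 carrier genotypes, as several other lists did. Among these were erythroid genes (-0.039 for the mutant and 1.18 for the Cre-negative libraries) and G2 and M phase genes (-0.11 and 0.040). The Cre-negative medians rest on 2 libraries, and the difference between genotypes was not tested over any list. Pooled, 34 of 50 interferon-stimulated members had negative log2 fold changes (median -0.065). Their median was -0.15 for the mutant libraries alone and 0.082 for the Cre-negative libraries alone. Oas2, an antiviral RNA-sensing enzyme gene, stood at 15.01, 11.5 and 8.86 CPM in wild type, 3.85, 4.49, 8.07 and 7.77 in mutant and 8.23 and 7.17 in Cre-negative libraries. Rtp4, an interferon-induced chaperone of receptors, stood at 23.3, 27.3 and 23.5 CPM in wild type, 17.5, 15.5, 19.98 and 19.7 in mutant and 21.9 and 22.9 in Cre-negative libraries. These 2 were the only members wholly below wild type, against 0.733% of all genes. Both are shown for their low p, which favours such separation. Of the immediate early and heat shock genes 19 of 29 were positive (median 0.16, and 0.048 without cre_negative_780). The inducible chaperone genes Hspa1a and Hspa1b were wholly below wild type, again against 0.733% of all genes. Hspa1b stood at 0.734, 0.853 and 1.17 CPM in wild type, 0.0599, 0.162, 0.197 and 0.174 in mutant and 0.0627 and 0.609 in Cre-negative libraries, and Hspa1a at 0.6397, 0.694 and 1.301 CPM in wild type, 0.1198, 0.01802, 0 and 0.0965 in mutant and 0.167 and 0.448 in Cre-negative libraries. Limma-voom with quality weights called both. The 2 genes are nearly identical in sequence, and reads without a unique alignment were counted for no gene, so both levels are uncertain and may be too low.

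Markers of blood lineages had mostly positive log2 fold changes. Mature neutrophil markers had the highest median, 1.32 with 14 of 18 positive, at summed levels of 337 to 472 CPM in wild type, 414 to 766 in mutant and 253 to 628 in Cre-negative libraries; Stfa1 and Stfa2 had no counts at all. Without mutant_830 that median was 0.74. The gelatinase gene Mmp9 stood at 0.263, 0.337 and 0.584 CPM in wild type, 0.1997, 0.396, 2.97 and 3.97 in mutant and 2.15 and 0.251 in Cre-negative libraries, high in mutant_829, mutant_830 and cre_negative_780 and not in the other carriers. The neutrophil collagenase gene Mmp8 was highest in the same 3 libraries, at 3.92, 6.06 and 3.801 CPM against 0.677 to 1.13 in wild type. B cell and plasma cell markers had 25 of 28 positive members and a median of 0.63 (0.43 to 0.77 over single libraries left out), at summed levels of 623 to 792 CPM in wild type and 596 to 1057 in carriers. Ebf1, a factor of early B cells, was also highest in mutant_829, mutant_830 and cre_negative_780, at 5.06, 4.51 and 5.37 CPM against 1.34, 1.88 and 2.22 in wild type. T and NK cell markers had 23 of 27 positive members (median 0.35, and 0.14 without cre_negative_780), at summed levels of 168 to 211 CPM in wild type and 149 to 237 in carriers. Trbc2, a constant segment of the T cell receptor, was the only T and NK marker wholly above wild type, against 1.15% of all genes. It stood at 0.621, 0.357 and 0.339 CPM in wild type, 1.04, 0.973, 1.04 and 0.887 in mutant and 2.51 and 0.752 in Cre-negative libraries. Monocyte, macrophage and dendritic cell markers had 24 of 35 (median 0.26, 0.14 to 0.26 over single libraries left out), at summed levels of 964 to 1100.2 CPM in wild type and 1055 to 1264 in carriers. The part of these markers in the other differences was not tested.

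Erythroid genes turned on 1 library. Their pooled median was 0.46 with 29 of 36 positive, and it became -0.093 without cre_negative_819; Icam4 had no counts, and the summed level was 6084 CPM in that library and 1562 to 2080.04 in the other 8. Trib2, a pseudokinase gene, showed the same library apart, at 28.8 and 86.4 CPM in cre_negative_780 and cre_negative_819 against 24.7, 22.97, 22.1 and 27.5 in mutant and 20.3, 11.4 and 17.4 in wild type, and its carriers did not overlap wild type. Alas2, the first enzyme of haem synthesis in red cells, had a negative log2 fold change of -0.64 (95% interval -1.18 to -0.10, edgeR adjusted p = 0.9998), at 3.41, 4.94 and 3.75 CPM in wild type, 2.12, 1.66, 3.31 and 2.296 in mutant and 3.43 and 2.69 in Cre-negative libraries. Zfpm1, which encodes the GATA cofactor FOG1, was steadier, at 43.7, 31.96 and 43.6 CPM in wild type, 57.3, 46.9, 49.6 and 49.4 in mutant and 59.3 and 51.1 in Cre-negative libraries, without overlap. Hdc, the histamine-forming enzyme gene of mast cells and basophils, also had no overlap, at 20.8, 13.1 and 20.9 CPM in wild type and 22.9 to 31.3 in carriers, within a list whose median was 0.17, and 0.040 without mutant_830. Megakaryocyte genes had 22 of 23 positive members (median 0.20, 0.063 to 0.35 over single libraries left out), long-term HSC genes 23 of 29 (median 0.17, 0.0090 to 0.30), granulocyte-monocyte progenitor genes 14 of 19 (median 0.16, 0.14 to 0.24) and lymphoid-primed progenitor genes 13 of 20 (median 0.075, -0.0092 without cre_negative_780 to 0.22). Of the 3 long-term HSC genes of lowest p, the log2 fold change was 0.81 for Gfi1b, -0.29 for Ly6a and -0.44 for Ifitm1. Among progenitor genes Fcgr3, an immunoglobulin receptor gene, was wholly above wild type, at 27.8, 8.99 and 20.9 CPM in wild type, 27.8, 34.1, 27.96 and 31.2 in mutant and 43.2 and 30.6 in Cre-negative libraries; its highest wild-type value and lowest carrier value nearly touched.

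**Figure D4:**
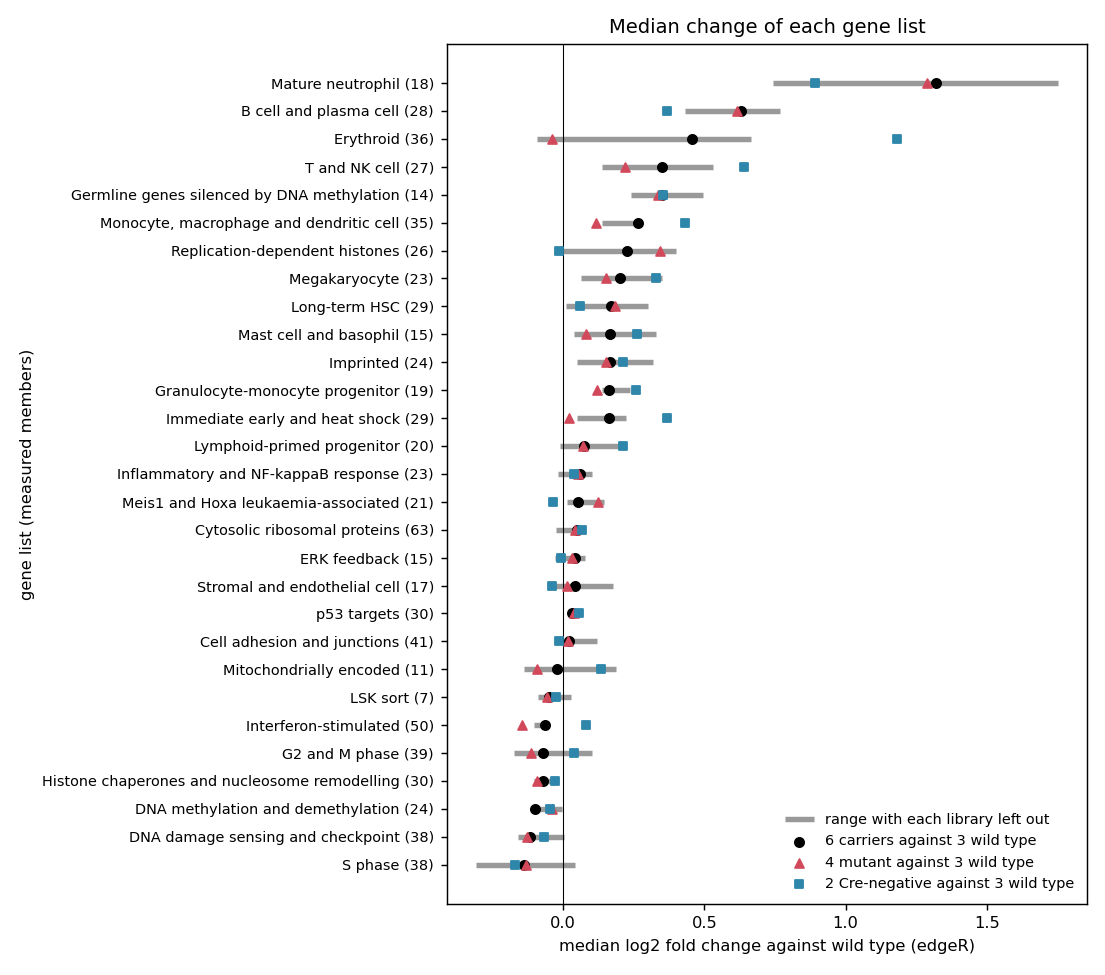
Median log2 fold change of each gene list against wild type (horizontal axis) for all 6 carriers (circles), the 4 mutant libraries (triangles) and the 2 Cre-negative libraries (squares); grey bars give the range of the pooled median with each library left out. All sets share the 3 wild-type libraries, and the erythroid bar reaches from -0.093 to 0.67.

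The remaining lists held no member wholly above or below wild type, against 1.88% of all genes. Replication-dependent histone genes had 25 of 26 positive members and a median of 0.23 (-0.032 to 0.40 over single libraries left out); the linker histone gene Hist1h1c stood at 164, 219.8 and 274 CPM in wild type, 419, 351, 216 and 259 in mutant and 371 and 172 in Cre-negative libraries. Imprinted genes had a median of 0.17 (0.049 to 0.32 without cre_negative_819 over single libraries left out), with Igf2r at 67.1, 43.4 and 53.996 CPM in wild type, 53.5, 52.6, 85.4 and 56.8 in mutant and 100.3 and 69.02 in Cre-negative libraries. Medians were 0.054 for Meis1 and Hoxa genes, 0.059 for inflammatory genes, 0.048 for cytosolic ribosomal proteins, 0.044 for ERK feedback genes, -0.022 for mitochondrially encoded genes, -0.051 for the genes of the LSK sort and 0.041 for stromal and endothelial markers. With single libraries left out, the medians of all these lists except imprinted and Meis1 and Hoxa genes took both signs.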

How the data were processed

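Total RNA of sorted LSK cells, depleted of ribosomal RNA, was sequenced with a kit that marks strand (per the labels' protocols). The submitters' processing notes name STAR, HTSeq 0.5.3p3, DESeq2 and the builds mm10 and GRCm38; whether HTSeq used strand is not given in the sources used here. Genes that overlap on opposite strands are therefore uncertain. The authors deposited raw counts for 39179 Ensembl genes and 5 rows that name no gene. The latter held 40.5% to 47.3% of reads and were left out. The second deposited table is a scaled signal equal to these counts divided by 1 factor per library and entered no test.

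Genes were kept with filterByExpr by carrier status (18012 genes) and scaled by TMM, and the quasi-likelihood test of edgeR 4.0.16 compared 6 carriers with 3 wild types (Benjamini-Hochberg, 0.05, two-sided). Mutant and Cre-negative were compared in a fit with 1 mean per group. Standard errors are the log2 fold change over the square root of F, and intervals use the fit's degrees of freedom. DESeq2 1.42.0 and limma 3.58.1 in R 4.3.3 were alternatives. Libraries of 1 group differed by at least 14.6 in chi-square per degree of freedom and each counted once. Of 18012 genes tested, 24 were named by lowest p with a mean of at least 1 CPM, leaving out clone names, antigen receptor segments and Y-linked genes, beside Dnmt3a and up to 3 members of each of 29 lists of lowest p. The comparison, the members and the lists were chosen with earlier results of these data known. Symbols and coordinates came from GENCODE M21 (GRCm38), which matched 37693 identifiers, and 802 of 815 list symbols matched. Promoter windows are from RefSeq GRCm38.p6. Some results are not reported here.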

Additional observations from a re-analysis of the deposited data

Results flagged for a closer look

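Each named gene was examined for 1 library far from the rest of its group, by Dixon's ratio, in the 4 mutant libraries and in the 6 carriers. Of 208 such sets of values 16 stood out, and chance alone gives about 1 in 20.

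cre_negative_819 was the distant library in 7. Among the carriers it was high for Mmp14 at 38.2 CPM (others 19.99 to 24.3), Prkdc at 203 CPM (others 141 to 162), Gfi1b, a repressor of the erythroid and megakaryocytic lines, at 67.4 CPM (others 23.5 to 31.4) and Trib2 at 86.4 CPM (others 22.1 to 28.8). It was also high for Hspa1b at 0.609 CPM (others 0.0599 to 0.197) and Hspa1a at 0.448 CPM (others 0 to 0.167), and low for Hoxa2 at 0.914 CPM (others 1.896 to 2.38). cre_negative_780 was high for the T cell genes Trbc2 at 2.51 CPM (others 0.752 to 1.04) and Themis at 3.13 CPM (others 0.932 to 1.35).

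In the mutant libraries, Nav1 was low in mutant_824 at 25.2 CPM (others 28.9 to 29.2). mutant_829 was high for Atm at 243 CPM (others 235 to 236) and Igf2r at 85.4 CPM (others 52.6 to 56.8), mutant_830 for Cavin2 at 46.3 CPM (others 37.3 to 38.4) and mutant_827 for Themis at 1.35 CPM (others 0.998 to 1.04). Col1a1 was high in mutant_824 at 2.097 CPM (others 0.0537 to 0.2701), apart both from the other mutant libraries and from all other carriers.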

How the results depend on the processing

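Against the 0 genes of edgeR between carriers and wild type, DESeq2 called 35, limma-voom with quality weights 15, and edgeR on the mutant libraries alone with presence of Y-linked transcripts as a term, an alternative chosen after seeing the data, 26. Other scaling, other filters, means fitted per group, the mutant or the Cre-negative libraries alone, that term on all libraries, an adjusted p of 0.1 and removal of Y-linked, Xist, histone, mitochondrial and small RNA genes each left 0. Over single libraries left out the count ranged from 0 to 9, the 9 without cre_negative_819. Between mutant and Cre-negative, edgeR called 0, DESeq2 21 and limma-voom 0, and the count over single libraries left out ranged from 0 to 1874, the latter without cre_negative_780 and 4 without cre_negative_819, each with 1 library left in the Cre-negative arm, whose spread comes from the other groups. The pooled Dnmt3a difference turned from -0.16 to 0.023 in the mutant libraries alone and 0.0080 there with that term. The 339 genes without overlap became 1449 with the mutant libraries alone and 420 to 1371 with 1 library left out (1200 without cre_negative_819); fewer libraries overlap less by construction. Over single libraries left out, Ect2 (-0.29 to 0.032), Bub1 (-0.34 to 0.026), Top2a (-0.34 to 0.053), mt-Nd5 (-0.37 to 0.13) and Nf1 (-0.40 to 0.0017) took both signs; Nf1 was also positive in the Cre-negative libraries alone (0.021); the cause was not tested. No paired analysis was possible because the library numbers differ between groups.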

Other observations

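Of the 35 genes that DESeq2 called between carriers and wild type, 28 had no overlap, against 1.88% of all genes. Calls made on the same libraries favour that, so it lends them no support. Of the 35, 22 lay outside the 24 named above, and those given here were picked after their values were seen. Xlr4a, an X-linked gene of lymphocytes, stood at 7.17, 7.697 and 9.22 CPM in wild type, 13.1, 17.1, 12.9 and 11.7 in mutant and 16.7 and 10.3 in Cre-negative libraries. Nxf7, also X-linked, stood at 0.564, 0.496 and 0.452 CPM in wild type, 1.96, 1.39, 1.56 and 1.505 in mutant and 3.36 and 0.788 in Cre-negative libraries. Xlr4a has near-identical neighbours, so its level is uncertain. Ggt1, which cleaves extracellular glutathione, stood at 1.43, 0.893 and 1.41 CPM in wild type, 5.01, 3.17, 6.15 and 4.88 in mutant and 2.21 and 1.52 in Cre-negative libraries. Serpinh1, a collagen chaperone gene, stood at 3.198, 2.103 and 4.09 CPM in wild type, 10.4, 7.51, 10.8 and 9.78 in mutant and 11.5 and 2.83 in Cre-negative libraries.

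The claudin gene Cldn4, of the junctions that ZO-1 anchors, went opposite to Tjp1, at 0.169, 0.516 and 0.415 CPM in wild type, 3.53, 2.13, 2.18 and 1.698 in mutant and 6.08 and 0.4299 in Cre-negative libraries. The deubiquitinase gene Usp44 stood at 2.41, 3.49 and 2.07 CPM in wild type, 6.33, 4.95, 5.65 and 6.096 in mutant and 5.79 and 3.15 in Cre-negative libraries, high in the mutant libraries and cre_negative_780 and low in cre_negative_819. The immunoglobulin segment Ighv2-2 stood at 0, 0 and 0.0189 CPM in wild type against 0.599, 0.486, 1.72 and 0.463 in mutant and 3.28 and 0.143 in Cre-negative libraries.

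Of 39179 genes, 2 had counts in all 6 carriers and 0 in all wild types, and 9 had the reverse. Gm15399, a processed pseudogene, had 1 to 7 counts in carriers, and Dclk1 1 to 8.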
